A study of Mus musculus with 2 samples.

Results

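The angiopoietins, their Tie receptors and the angiopoietin-like proteins were followed in the uterus of pregnant mice by reading the rows of 9 named genes in the deposited table of tags per gene. Of the 9 genes, 8 had a row among the 14678 genes of the table, namely the ligands Angpt1 and Angpt2, the receptors Tek and Tie1, and the angiopoietin-like genes Angptl2, Angptl4, Angptl6 and Angptl7. Angptl1 was not analysed here. All mice were young adult female littermates of the genotype VEGFtetO/tetO/beta-AKtg/wt, mated with VEGFtetO/tetO males, and the uteri were taken at gestation day 2.5 (G2.5), before implantation. Both groups thus carried tet operator sequences in the VEGF promoter and a tetR-Krab repressor driven by a beta-actin promoter, so that the repressor was not restricted to one cell type. Dox+ mice ate doxycycline chow, which releases the repressor, and served as the VEGF-normal group. Dox− mice had been taken off doxycycline after weaning and were the VEGF-repression group. For each group 6 µg of total RNA pooled from 3 uteri gave 1 library. No difference below thus has a replicate check within these libraries, and every interval covers counting error only.

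Angiopoietins are secreted ligands of Tek (also called Tie2), a receptor tyrosine kinase of endothelial cells. Angpt1 is made largely by the cells around vessels, activates Tek and stabilizes vessels, while Angpt2 is made by endothelial cells and, depending on context, opposes or replaces Angpt1 when vessels are remodelled. Tie1 is a related receptor, long held to be an orphan, that forms complexes with Tek. The angiopoietin-like proteins share the coiled-coil and fibrinogen-like design of angiopoietins but do not signal as Tek ligands, and several act in lipid metabolism. The endometrium is one of the few adult tissues in which blood vessels are remodelled in every cycle and in early pregnancy.

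The total of clean tags was 5985925 for Dox+ and 5844315 for Dox−, of which 74.1% and 72.2% were assigned to genes of the table. Levels are given as copies, the number of tags of a gene, and as TPM, the copies per 1000000 clean tags, without a correction for length. Vegfa, the repressed gene (chromosome 17, 46153942 to 46169326), had 247 copies or 41.3 TPM in Dox+ and 125 copies or 21.4 TPM in Dox−, a fold of 0.518 (95% interval 0.415 to 0.645). The paper also reports lower VEGF mRNA by qPCR and lower VEGF protein by Western blot in Dox− uteri. Uterine genes such as Hoxa10 and Hoxa11, homeobox genes of the endometrial stroma, had tags in both libraries, with 3120 and 1060 copies of Hoxa10 and 2573 and 785 of Hoxa11.

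Angptl7, a secreted protein, had the largest difference of the 8 genes, with a level 60.8-fold lower in Dox− than in Dox+. The ligands Angpt1 and Angpt2 and the receptors Tek and Tie1 each had fewer tags in Dox−, and for Angpt2, Tek and Tie1 the difference was larger than counting error. Angptl2, Angptl4 and Angptl6 had nearly the same level in both libraries. Together the 4 genes of the Tie system had 345 copies in Dox+ and 182 in Dox−, a fold of 0.540 (95% interval 0.449 to 0.648), while Angptl2, Angptl4 and Angptl6 together had 694 and 665 copies, a fold of 0.981 (0.881 to 1.09). The grouping of these sums followed the values seen. In bulk RNA of whole uteri, fewer cells of a type and less RNA per cell cannot be told apart.

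**Figure D1:**
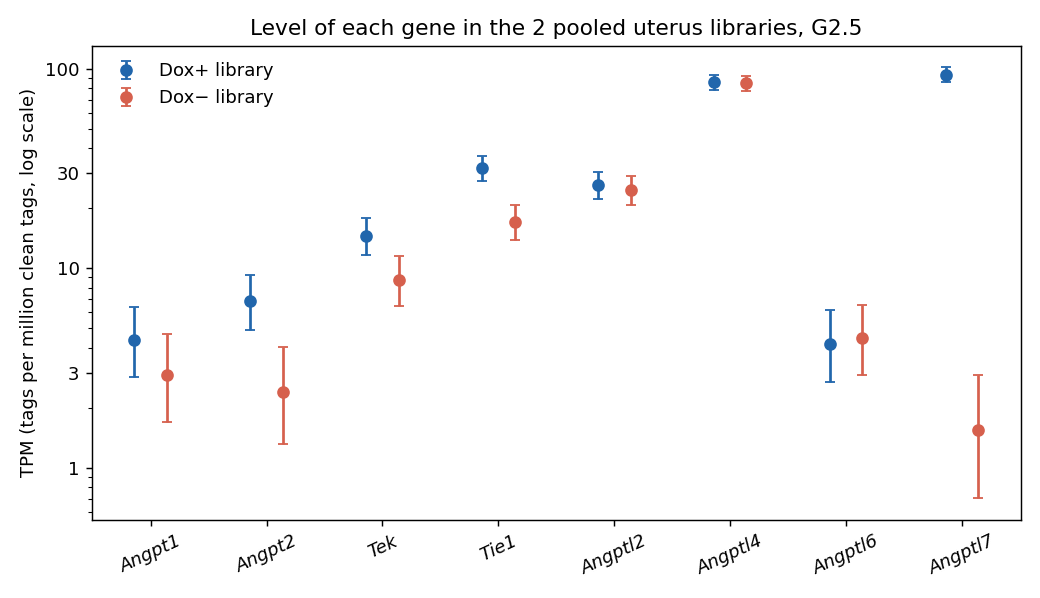
TPM of each gene on a log axis, with Dox+ in blue and Dox− in red, with exact 95% Poisson intervals of the counts. Angptl7 drops from 93.6 TPM to 1.54 TPM, and the 4 genes on the left are all lower in Dox−, with overlapping intervals for Angpt1.

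A gene was tested where both libraries together held at least 200 of its copies, as in the methods of the study. It was called at an FDR below 0.05 in the Audic-Claverie test, which compares tag counts of 2 libraries and not conditions, and an absolute log2 ratio above 0.5. Of the 8 genes 4 reached 200 copies, namely Tie1, Angptl2, Angptl4 and Angptl7, and Angptl7 reached it only through the Dox+ library. Among these 4, 2 were called lower in Dox−, Tie1 and Angptl7, and 0 were called higher. Over all 6547 genes tested, 17.8% were called lower and 18.8% higher. Past a fold of 1.5 were the same 2 genes, against 14.7% of all tested genes lower and 15.2% higher, and past a fold of 2 was Angptl7, against 5.62% lower and 4.61% higher. The 4 genes had a median log2 ratio of -0.49, and all genes tested had one of 0.03. Over all 8 genes it was -0.66, with 7 ratios negative and 1 positive. Of all genes tested, a set that held only 4 of the 8, 47.9% had a negative ratio. The 4 genes below 200 copies were Tek with 138, Angpt2 with 55, Angptl6 with 51 and Angpt1 with 43 combined copies. With the filter on copies removed, Tek and Angpt2 were also called lower, which made 4 genes of 8, against 15.8% lower and 15.7% higher of all genes in the table. The same 4 genes were called lower from 20 combined copies, where 17.6% of genes were lower and 18.1% higher.

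**Figure D2:**
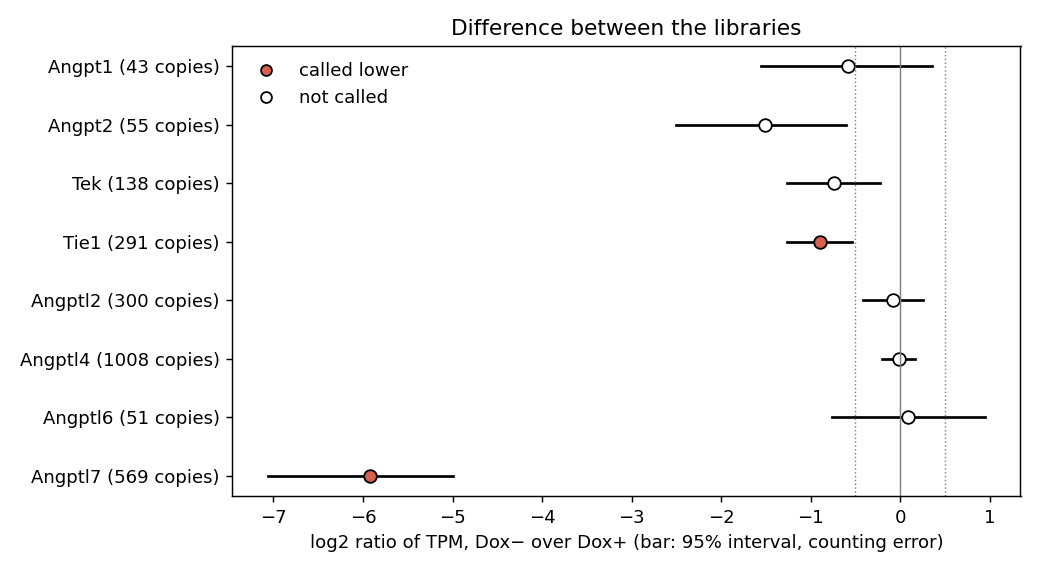
log2 ratio of TPM, Dox− over Dox+, of each gene with its exact 95% interval, and the combined copies beside the name. Filled points were called lower, open points were not called, and dotted lines mark log2 ratios of -0.5 and 0.5. Tie1 and Angptl7 were called, and the intervals of Angpt2 and Tek also lie below 0.

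Both ligands were sparse in tags. Angpt1 (chromosome 15, 42256273 to 42508523, minus strand, 9 exons, build NCBIM37) had 26 copies in Dox+ and 17 in Dox−, or 4.34 TPM (95% Poisson interval 2.84 to 6.36) and 2.91 TPM (1.69 to 4.66). Its fold of Dox− over Dox+ was 0.670, with an interval of 0.341 to 1.28, so a difference was not detectable at this depth. Angpt2 (chromosome 8, 18690263 to 18741562, minus strand, 9 exons) had 41 copies in Dox+ and 14 in Dox−, or 6.85 TPM (4.92 to 9.29) and 2.40 TPM (1.31 to 4.02). The intervals of the 2 libraries did not overlap, and the level in Dox+ was 2.86 times that in Dox− (1.53 to 5.68). Angpt2 stood below the 200 copies needed for a test. Its log2 ratio of -1.52 had an interval of -2.51 to -0.61, and 1.94% of the genes tested had a lower ratio. Those genes had at least 200 copies, so counting error spread their ratios less than that of Angpt2.

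Within a library the share of the 2 ligands can be compared without any scaling. There were 1.58 copies of Angpt2 for each copy of Angpt1 in Dox+ and 0.824 in Dox−, not corrected for length. The ratio of these ratios was 0.526 with an exact interval of 0.202 to 1.35, which holds 1, so the change in their proportion was not larger than counting error. A further ligand of the family, Angpt4, had 0 copies in Dox+ and 2 in Dox−. Both are under the floor of 3 copies (0.501 and 0.513 TPM), and no fold was taken.

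The receptors had more tags than the ligands and so narrower intervals. Tek (chromosome 4, 94405980 to 94541667, plus strand, 23 exons) had 87 copies in Dox+ and 51 in Dox−, or 14.5 TPM (11.6 to 17.9) and 8.73 TPM (6.50 to 11.5). The fold was 0.600 (0.416 to 0.858), below 1 beyond counting error, but the gene had too few copies to be tested. Tie1 (chromosome 4, 118143796 to 118162666, minus strand, 22 exons) had 191 copies in Dox+ and 100 in Dox−, or 31.9 TPM (27.5 to 36.8) and 17.1 TPM (13.9 to 20.8). Tie1 was called lower, with a fold of 0.536 (0.417 to 0.687) and a log2 ratio of -0.90, below which lay 7.03% of the genes tested. With a coefficient of variation between pools of 0.2 assumed in the exact test of edgeR, Tie1 was no longer called, and 2.66% of the genes tested were called lower and 2.25% higher. The proportion of the receptors differed by less than counting error, with 0.455 copies of Tek for each of Tie1 in Dox+ and 0.510 in Dox−, a ratio of ratios of 1.12 (0.716 to 1.74).

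The promoters of 3 genes are shown, those of the receptors, which were lower in the same library, and of Angptl7, which differed most. They are the 250 bases before the RefSeq start on GRCm38.p6, printed 5′ to 3′ on the strand of the gene, and capitals mark GGAA or its complement TTCC, the core of the motif of ETS factors, which bind many endothelial promoters. These bases were read from RefSeq's table, which held 6 of the 9 named genes, and no binding was measured in this study.
Tek, chr4:94739039-94739288, plus strand: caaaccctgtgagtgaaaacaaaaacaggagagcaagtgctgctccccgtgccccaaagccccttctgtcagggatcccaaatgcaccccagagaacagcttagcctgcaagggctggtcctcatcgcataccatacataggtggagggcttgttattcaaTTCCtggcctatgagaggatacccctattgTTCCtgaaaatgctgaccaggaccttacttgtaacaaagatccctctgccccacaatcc
Tie1, chr4:118489850-118490099, minus strand: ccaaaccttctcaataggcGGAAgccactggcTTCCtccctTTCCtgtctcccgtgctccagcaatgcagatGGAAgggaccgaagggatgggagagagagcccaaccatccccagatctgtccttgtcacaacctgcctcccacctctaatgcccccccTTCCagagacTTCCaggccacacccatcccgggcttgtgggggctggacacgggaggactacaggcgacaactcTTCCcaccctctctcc
Angptl7, chr4:148500463-148500712, minus strand: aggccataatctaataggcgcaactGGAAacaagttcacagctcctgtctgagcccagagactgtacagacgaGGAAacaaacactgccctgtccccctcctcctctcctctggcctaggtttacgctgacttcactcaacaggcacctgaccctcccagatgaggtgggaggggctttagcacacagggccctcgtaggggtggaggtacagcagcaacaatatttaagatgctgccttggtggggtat
The Tie1 window held 7 matches on either strand, and 3.82% of the 32851 promoters of this length held at least 7. Tek and Angptl7 held 2 matches each, the median of all promoters was 3, and 76.8% held at least 2. A search for TGTTCT or its complement AGAACA, the core of the element bound by progesterone and glucocorticoid receptors, found 1 match in Tek and 0 in Tie1 and Angptl7, and 16.1% of all promoters held at least 1. Neither TATAAA nor its complement TTTATA occurred in these windows, and 12.4% of all promoters held one of them. A match of letters is a description and no site.

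Tek and Tie1 are markers of endothelial cells, so their levels were set beside those of other endothelial genes. Of 20 listed endothelial markers 17 others were measured, all with tags in both Dox+ and Dox−, and they summed to 561 TPM in the former and 473 TPM in the latter library. Of these 17, 13 had a negative log2 ratio, and of the 7 tested 3 were called lower and 0 higher, with a median of -0.31. Among all genes tested, a set that leaves out the sparser genes, 47.9% had a negative ratio, 17.8% were called lower and 18.8% higher. Cdh5, the VE-cadherin of endothelial junctions, went from 446 to 216 copies (log2 ratio -1.01), Egfl7, a secreted endothelial protein, from 255 to 140 (-0.83), and the tight junction gene Cldn5 from 152 to 90 (-0.72). Pecam1, a pan-endothelial adhesion molecule named here after its value was seen, had 243 and 253 copies. The fold of Pecam1 had an interval of 0.891 to 1.28, so the endothelial markers did not share one difference.

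The receptors differed between the libraries by less than counting error relative to Cdh5, and were lower in Dox− relative to Pecam1, in ratios chosen after the values were seen. Copies of Tie1 for each copy of Cdh5 were 0.428 in Dox+ and 0.463 in Dox−, a ratio of ratios of 1.08 (0.798 to 1.46), and for Tek over Cdh5 it was 1.21 (0.808 to 1.80). Set against Pecam1, the ratio of ratios was 0.503 (0.368 to 0.685) for Tie1 and 0.564 (0.374 to 0.844) for Tek. Against the sum of the 17 other endothelial markers it was 0.637 (0.492 to 0.820) for Tie1 and 0.713 (0.493 to 1.02) for Tek. Relative to this sum, Tie1 was lower in Dox− beyond counting error, and for Tek the interval reached 1. Angpt2, against the same sum, had a ratio of ratios of 0.415 (0.209 to 0.780). The sum is weighted by abundance. Its most abundant genes, named after their values were seen, were Cd34 with 864 and 970 copies and Ramp2 with 611 and 480. A sum without Cd34 was not taken.

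**Figure D3:**
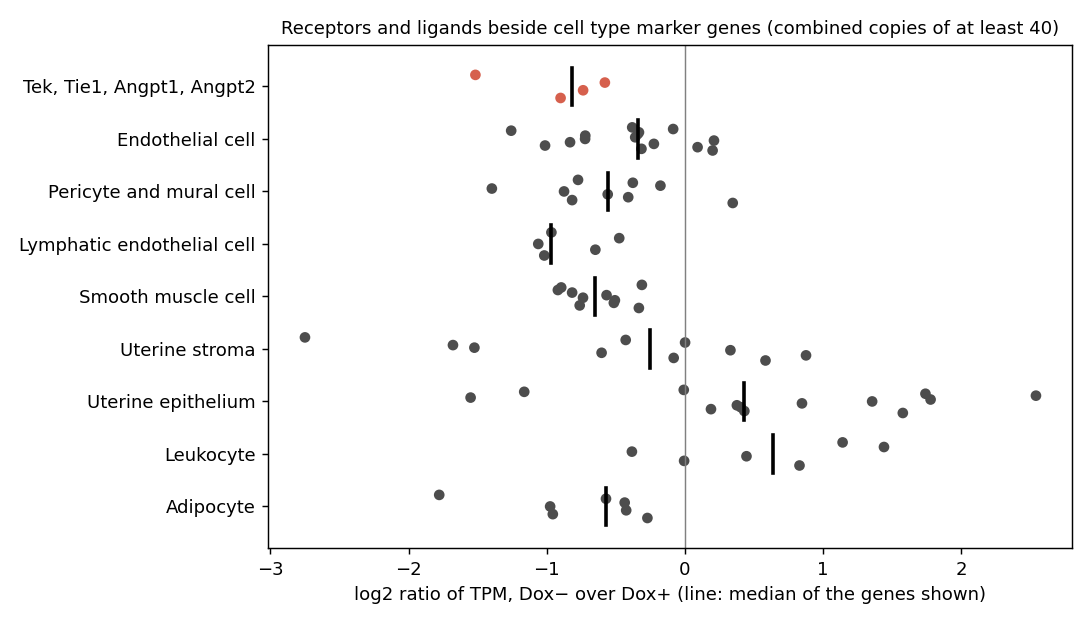
log2 ratio of TPM, Dox− over Dox+, of Tek, Tie1, Angpt1 and Angpt2 (red) and of listed cell type markers (grey) with 40 or more copies over both libraries, with the median of each row as a line. The median of the 4 genes was -0.82, that of 15 endothelial markers was -0.34, and that of 13 epithelial markers was 0.43.

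Cells around vessels, the main source of Angpt1, were followed with 9 other markers of pericytes and mural cells. Of 6 tested, 4 were called lower and 0 higher, with a median log2 ratio of -0.69. Over all genes tested, 17.8% were called lower and 18.8% higher. The 9 markers summed to 1490 TPM in Dox+ against 1225 TPM in Dox−. Cspg4, the NG2 proteoglycan of pericytes, went from 240 to 89 copies (log2 ratio -1.40), and the channel gene Kcnj8 from 214 to 114 (-0.87). Desmin (Des), which smooth muscle shares, went from 4647 to 2578 copies (-0.82) and Rgs5, a regulator of G-protein signalling, from 196 to 130 (-0.56). Anpep, an aminopeptidase of many cell types named after its value was seen, was the one marker with a positive log2 ratio, 0.35 with 3132 and 3890 copies, and was not called. Against the sum of all 9 markers the ratio of ratios of Angpt1 was 0.814 (0.414 to 1.56), and without the abundant Des and Anpep it was 1.08 (0.543 to 2.08), so that no difference in proportion was detectable with either sum. Lymphatic endothelial markers were too sparse for the test. All 6 with a row had a negative log2 ratio, that of Prox1 against the floor of 3 copies. The intervals of the folds of Flt4 and Reln held 1. Over all genes tested, a set that leaves out such sparse genes, 47.9% of ratios were negative. The 3 lymphatic markers with the most copies were Pdpn with 114 and 55 copies, Mmrn1 with 94 and 44 and Lyve1 with 77 and 48. The 6 genes summed to 59.1 TPM against 32.0 TPM, and Prox1, the defining transcription factor, had 4 copies and 0.

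Other cell types differed between the libraries as well. Beside each count below stand 17.8% called lower and 18.8% called higher over all genes tested. Of 10 smooth muscle markers 9 were tested and 8 called lower, with a median log2 ratio of -0.74. Among them were Smtn (-0.92), Lmod1 (-0.89) and Mylk (-0.76), and the sum was 8063 TPM against 5407 TPM. Stromal markers were mixed, with 4 called lower and 2 higher of 10 (Hand2 -2.75, Hoxa11 -1.68, Hoxa10 -1.52, Lum 0.88) and sums of 9127 and 10205 TPM. All sums here are weighted by abundance. Col1a1, named after its value was seen, alone had 3845 and 5766 TPM of the stromal sums. Epithelial markers had 6 called higher and 2 lower of 12 tested, and summed to 1311 TPM against 1893 TPM. Wnt7a had a log2 ratio of 2.54, Krt7 1.78 and Ltf 1.58. The 2 called lower, named after their values were seen, were the tight junction genes Cldn3 with 1482 and 494 copies (-1.55) and Cldn4 with 149 and 65 (-1.16). Of 4 leukocyte markers tested 1 was called higher, Cd74 (0.83), with sums of 565 and 948 TPM. Cd74 alone had 458 and 815 TPM of these sums. Of 4 adipocyte markers tested 2 were called lower, Adipoq (-0.97) and Car3 (-0.96), with sums of 419 and 282 TPM. In both libraries none of these markers with a row was at 0 apart from Prox1. The part of these cell types in the levels of the 8 genes was not tested.

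Partners of Tek in signalling were followed as well. Of 20 listed genes of Tie2 signalling, from the receptor's phosphatase to Akt1 and Foxo1, 13 were tested, 1 was called lower, 2 were called higher and 10 were not called, with a median log2 ratio of 0.10, beside 17.8% lower and 18.8% higher over all genes tested. Itga5, the integrin subunit that can associate with Tek, went from 640 to 328 copies (-0.93). Birc5, the apoptosis inhibitor survivin, went from 184 to 404 copies (1.17), and the adaptor Shc1 from 187 to 263 (0.53). Birc5 is also a gene of mitosis in all dividing cells. Below 200 copies, and named after their values were seen, Ptprb, the endothelial phosphatase that restrains Tek, had 84 and 95 copies, and Svep1, an extracellular protein that binds Tie1, had 49 and 18. The interval of the fold was 0.855 to 1.57 for Ptprb and 0.206 to 0.657 for Svep1. Of the 10 listed VEGF ligands and receptors 3 were tested and 1 was called lower, Vegfa, with a median of -0.30.

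Angptl7 lies on chromosome 4, 147869292 to 147874569, on the minus strand, with 5 exons, and codes for a secreted protein known from the cornea and the outflow tissue of the eye. Its 560 copies in Dox+ were 93.6 TPM (86.0 to 102) and its 9 copies in Dox− were 1.54 TPM (0.704 to 2.92). It was called lower, with a log2 ratio of -5.92 (interval -7.06 to -4.99), and its fold is known only within a wide range since it rests on 9 tags. Of the 6547 genes tested it was second from the lowest, after Lrp2, which had 534 copies in Dox+ and 0 in Dox−. Angptl7 and Lrp2 passed the filter on combined copies only through the Dox+ library, and the rank holds only among genes chosen by this filter. Angptl7 was the only one of the 8 genes still called with an assumed coefficient of variation of 0.4 between pools, at which 0.26% of all tested genes were called lower and 0.244% higher. Without a correction for length, it made up 35.0% of the tags of the 8 genes in Dox+ and 1.05% in Dox−.

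The genes most like Angptl7 were sought by the distance of log2(TPM + 1) over the 2 libraries. Npl, an enzyme of sialic acid breakdown, was the nearest, at a distance of 0.44, with 439 and 12 copies. Ndp, the Norrin ligand of Wnt receptors, followed at 1.11 with 271 and 14 copies, and Lrp2, the endocytic receptor megalin, at 1.35. With 2 libraries such a likeness rests on 2 values for each gene.

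**Figure D4:**
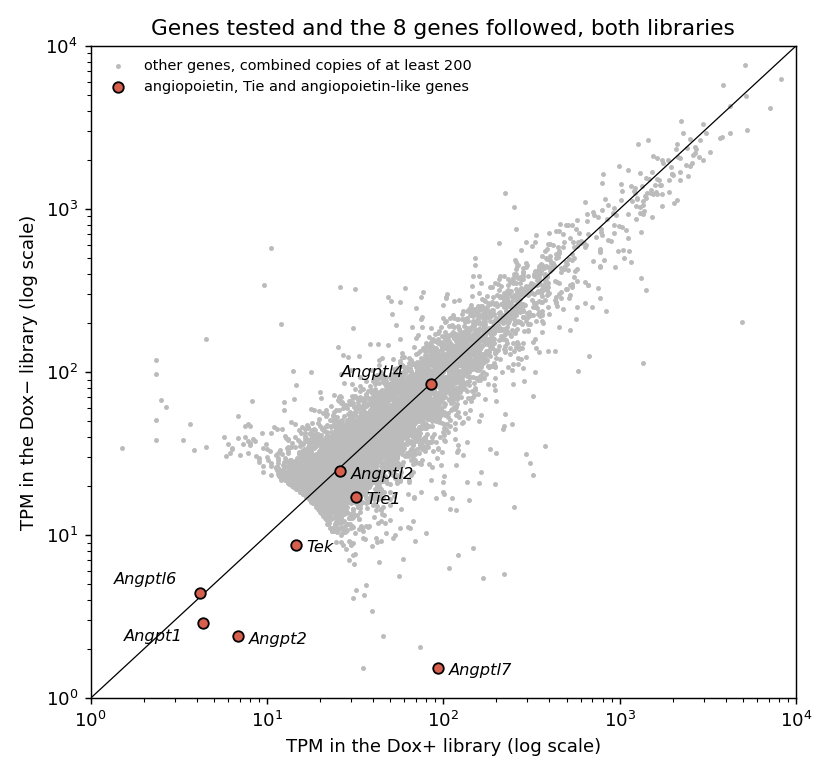
TPM in Dox+ against TPM in Dox− on log axes for genes tested (grey) and the 8 genes followed (red), with the line of equal levels. Angptl7 lies far below the line, Angptl4 and Angptl2 lie on it, and 3 grey genes under 1 TPM in a library fall outside the axes.

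Angptl7 lies inside the gene Mtor (147822720 to 147931792), on the other strand, and shares 0 exon bases with it. Mtor, the kinase of growth signalling, had 98 copies in Dox+ and 60 in Dox−, a fold of 0.627 (0.447 to 0.873), an interval that does not reach the fold of Angptl7. Of the neighbours named here within 200 kb of Angptl7, a distance set after its value was seen, Srm, spermidine synthase, went from 768 to 1319 copies and was called higher. Tardbp, with 683 and 779 copies, was not called, and Exosc10 (87 and 101) and Masp2 (12 and 0) were too sparse for the test, as was Mtor. Angpt2 likewise lies inside Mcph1 on the other strand with 0 shared exon bases, and Mcph1 had 35 copies in Dox+ and 49 in Dox−. Angptl6 shares 264 exon bases with A230050P20Rik, a gene of the other strand with 91 and 86 copies, and Angpt1 shares 283 with the noncoding Gm17473. Whether the counts separate the strands is not stated for the table, so tags in shared bases could belong to either gene.

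Angptl4 differed between the libraries by less than counting error. It (chromosome 17, 33910695 to 33918520, minus strand, 7 exons) codes for an inhibitor of lipoprotein lipase and is induced by PPAR factors, fasting and hypoxia. It had 513 copies in Dox+ and 495 in Dox−, or 85.7 TPM (78.4 to 93.4) and 84.7 TPM (77.4 to 92.5). Its fold of 0.988 had an interval of 0.872 to 1.12, and the gene was not called. It held 32.1% of the tags of the 8 genes in Dox+ and 57.8% in Dox−. The log2 ratio of -0.02 became 0.02 when the libraries were scaled by the tags counted in the table.

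Genes upstream of Angptl4 were followed by a list of its regulators. Of 13 listed PPAR and hypoxia factors 11 were tested, 1 called lower and 2 higher, with a median log2 ratio of 0.15, beside 17.8% lower and 18.8% higher over all genes tested. Egln3, an oxygen sensor that hypoxia itself induces, went from 35 to 179 copies (2.39), Arnt, the partner of the hypoxia-inducible factors, from 293 to 422 (0.56), and Vhl, which marks those factors for degradation, from 157 to 91 (-0.75). The PPAR genes themselves are named after their values were seen. Ppara had 21 copies in Dox+ and 3 in Dox−, and Pparg had 2 and 7, both too few for the test. Ppard had 130 and 124 copies and was not called. Of 10 listed partners in lipoprotein handling 4 were tested, 1 was called higher and 0 lower, with a median of -0.26. Tested or not, 9 of the 10 had a negative log2 ratio, that of Lipc (9 and 2 copies) against the floor, and 1 a positive one. Over all genes tested, a set that leaves out the sparser genes, 47.9% of ratios were negative. The one called was Lrp1, an endocytic receptor, with 585 and 812 copies (0.51). Gpihbp1, which anchors lipoprotein lipase to capillary endothelium and was named after its value was seen, had 50 copies in Dox+ and 7 in Dox−, a fold of 0.143 (0.0548 to 0.318), too few for the test.

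Angptl2 and Angptl6 did not differ beyond counting error. Angptl2 (chromosome 2, 33071589 to 33103237, plus strand), a secreted protein linked to inflammation in fat tissue, had 156 copies in Dox+ and 144 in Dox−, or 26.1 TPM (22.1 to 30.5) and 24.6 TPM (20.8 to 29.0). Its fold was 0.945 (0.749 to 1.19), and it was tested and not called. Angptl6 (chromosome 9, 20678253 to 20684154, minus strand), known as angiopoietin-related growth factor, had 25 and 26 copies, or 4.18 TPM (2.70 to 6.17) and 4.45 TPM (2.91 to 6.52). Its fold of 1.07 had an interval of 0.591 to 1.92, so that differences within this range were not detectable at its depth.

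The order of the genes by level was taken per kb of the longest annotated transcript. The paper describes tag profiling, which may count 1 tag for a transcript of any length, and in that case the undivided TPM is the level to compare. In Dox+ Angptl7 led with 43.4 TPM per kb, followed by Angptl4 with 28.1, Tie1 with 7.54 and Angptl2 with 7.32. Tek with 3.12, Angptl6 with 2.67, Angpt2 with 1.92 and Angpt1 with 1.02 came last. In this order the intervals of Tie1 and Angptl2 overlapped, as did those of each neighbouring pair from Tek down to Angpt1, and the other neighbours stood apart. Without the division by length, Angptl7 with 93.6 TPM (86.0 to 102) and Angptl4 with 85.7 TPM (78.4 to 93.4) overlapped in Dox+. In Dox− Angptl4 led with 27.7 TPM per kb, followed by Angptl2 with 6.92, Tie1 with 4.04, Angptl6 with 2.84 and Tek with 1.88. Angptl7 with 0.714, Angpt1 with 0.683 and Angpt2 with 0.673 were level at the bottom within their intervals. Tie1 and Angptl6, and Angptl6 and Tek, also overlapped per kb. Undivided, Tie1 with 17.1 TPM (13.9 to 20.8) and Angptl6 with 4.45 TPM (2.91 to 6.52) stood apart in Dox−. Per kb, Angptl7 thus stood in place 1 in Dox+ and in place 6 in Dox−, while Tie1 stood in place 3 and Tek in place 5 in both. These places depend on the division. Undivided, Angptl7 with 1.54 TPM (0.704 to 2.92) had the lowest value in Dox−, overlapping Angpt2 with 2.40 TPM (1.31 to 4.02). Tek with 8.73 TPM (6.50 to 11.5) then stood above Angptl6.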

How the data were processed

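Uterine RNA of 1 pooled Dox+ and 1 pooled Dox− sample was sequenced by digital gene expression. The authors removed adaptor-only, low quality and single-copy tags, aligned clean tags to mouse mRNA sequences of build mm9, and deposited counts of unambiguous tags for each gene, without normalization. The deposited TPM values are these counts per 1000000 clean tags, with 0.01 at 0 copies. CASAVA is named in the submitters' processing notes, and the aligner is not given in the sources used here. The labels describe fragmented mRNA and the paper tag profiling, which was not resolved. Columns of the authors' own ratio, log2 ratio, P-value and FDR were not used.

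Library sizes were recovered from counts and TPM of genes above 1000 TPM, and all 14050 and 13948 values of genes with a tag were then matched within 0.006 TPM. The Audic-Claverie test was two-sided, with Benjamini-Hochberg adjustment over all 14678 genes. Folds carry exact Clopper-Pearson intervals at 95% of the split of tags, levels exact Poisson intervals, and ratios of ratios exact conditional intervals. Counts of 3 or fewer were set to 3 for folds. With 1 library for each group no test of the conditions was possible.

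The 8 genes, 14 gene lists and tests were chosen with earlier results of these data known. All 8 genes are named, and from each list up to 4 called genes with the largest absolute log2 ratio or, where none was called, up to 3 with the most copies, except where the text says otherwise. Some genes that these rules would name are not reported here. The family list of angiopoietins and Tie receptors added Angpt4, and the other family list added no gene with a row. Positions and transcript lengths are from GENCODE on NCBIM37, the assembly of mm9, and promoters from RefSeq on GRCm38.p6. The alternatives were other filters on copies, TMM and median-ratio scaling, the sum of counted tags, Fisher's exact test, edgeR with assumed variation, a fold of 2, a pseudocount and the mean. The test and its intervals were tested on simulated data. Python 3.11.15 (numpy 2.4.6, scipy 1.17.1, pandas 2.3.3, matplotlib 3.10.9) and R 4.3.3 (edgeR 4.0.16, DESeq2 1.42.0) were used.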

Additional observations from a re-analysis of the deposited data

How the results depend on the processing

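Under the alternatives run, Angptl7 was called lower in each. The number of the 8 genes called lower, 2 as reported, was 4 from 20 combined copies or with no filter, and 1 with edgeR at an assumed coefficient of variation of 0.2 or 0.4 or at a fold of at least 2. From 100 combined copies it was 3, with Tek added, where 18.2% of genes were called lower and 19.2% higher. It stayed at 2 under the other settings, and 0 were called higher under all settings. The minimum of 20 gave 4 genes past a fold of 1.5 in place of 2, and 2 past a fold of 2 in place of 1. The median log2 ratio of -0.49 was -0.66 from 20 copies, and the mean was -1.73. The log2 ratio of Angptl4 changed sign, to 0.0215, with the sum of counted tags. Over all lists, 25 genes were called lower, and 39 from 20 copies. Over all genes tested, the scalings moved the share called lower between 16.2% and 19.4% and the share called higher between 17.3% and 21.2%. With 1 library for each group, variation between pools is unknown, leave-one-out values could not be had, and under 60 combined copies, as for Angpt1, Angpt2 and Angptl6, counting error limits what can be seen. No paired analysis was possible because each group has 1 library.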
